A study of Mus musculus with 6 samples.

Results

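The 4 myogenic regulatory factors (*Myf5*, *Myf6*, *Myod1* and *Myog*) and the 4 MEF2 genes (*Mef2a*, *Mef2b*, *Mef2c* and *Mef2d*) were followed in nascent transcription profiles of muscle stem cells (MuSCs). They were taken by symbol, and all 8 are among the 14546 protein-coding genes listed and among the 12451 genes tested. The profiles are PRO-seq libraries, in which nuclei extend their engaged RNA polymerases with biotinylated nucleotides, so that the reads map RNA as it is being made and not the stored mRNA. Libraries came from proliferating MuSCs in culture, 3 from controls (Ctrl, genotype Pax7CreERT/Suv4-20h1WT) and 3 from mutants (*Kmt5b* sKO), in which the same Cre driver, active in cells that express *Pax7* and switched on by tamoxifen, deletes *Kmt5b*. *Kmt5b*, also called Suv4-20h1, encodes a histone H4 lysine methyltransferase, and both groups carry the Cre. The labels give no age, sex or number of mice per library. Each gene is represented by 1 isoform, by a TSS region of 400 nt from its start, in RPM (reads relative to those in all TSS regions of a library), and by the gene body from there to its end, in TPM (which also divides by length).

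The myogenic regulatory factors are basic helix-loop-helix proteins that bind E-boxes (CANNTG) as dimers with E proteins and switch on muscle genes. *Myf5* and *Myod1* mark committed myoblasts, *Myog* drives terminal differentiation, and *Myf6* (MRF4) acts late and is the factor most characteristic of mature fibres. MEF2 proteins are MADS-box factors that bind an A/T-rich sequence and activate muscle genes together with the myogenic factors. *Myf5* and *Myf6* are neighbours in one locus whose enhancers are shared and spread over a long stretch of DNA.

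Behind these values lay 926904 to 3246064 TSS reads and 7425405 to 16249061 gene body reads per library, recovered from the steps between low values, with the fewest in *Kmt5b* sKO replicate 2. *Kmt5b* itself does not check the genotype labels, since its gene body gave 30.6, 35.4 and 38.5 TPM for Ctrl against 37.8, 35.0 and 42.6 TPM for *Kmt5b* sKO (limma adjusted p = 0.71). Of 8 MuSC markers 6 are listed, and their summed gene body level was 342 to 609 TPM in Ctrl and 382 to 512 TPM in *Kmt5b* sKO, with *Pax7* at 26.0 to 53.7 and at 25.5 to 29.5 TPM. In such bulk samples fewer cells of a type and less RNA per cell cannot be told apart.

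The order of the factors was led by *Myod1* and *Myog* in both genotypes. In the TSS region of Ctrl MuSCs *Myog* had 706 ± 145 RPM and *Myod1* 644 ± 66.8 RPM (SD, n = 3), each above 99.5% of the genes tested, and their libraries overlapped. *Mef2d* (85.7 ± 16.8), *Myf5* (65.2 ± 31.8), *Mef2a* (44.8 ± 12.02) and *Mef2c* (43.6 ± 20.1 RPM) followed, and each of these overlapped with its neighbour in the order. *Myf6* (1.37 ± 1.55) and *Mef2b* (0.46 ± 0.191 RPM) came last, overlapped with each other and lay far below the rest. In the gene body *Myod1* led with 1091 ± 214 TPM, before *Myog* with 676 ± 275 TPM, and *Myod1* was the higher of both in all 3 Ctrl libraries although their ranges overlapped. *Myf6* stood next to *Myf5* there, with 58.8 ± 21.1 against 67.2 ± 22.5 TPM. Its gene body mean in Ctrl was above 91.0% of the genes tested, and its TSS mean above 6.14%.

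**Figure D1:**
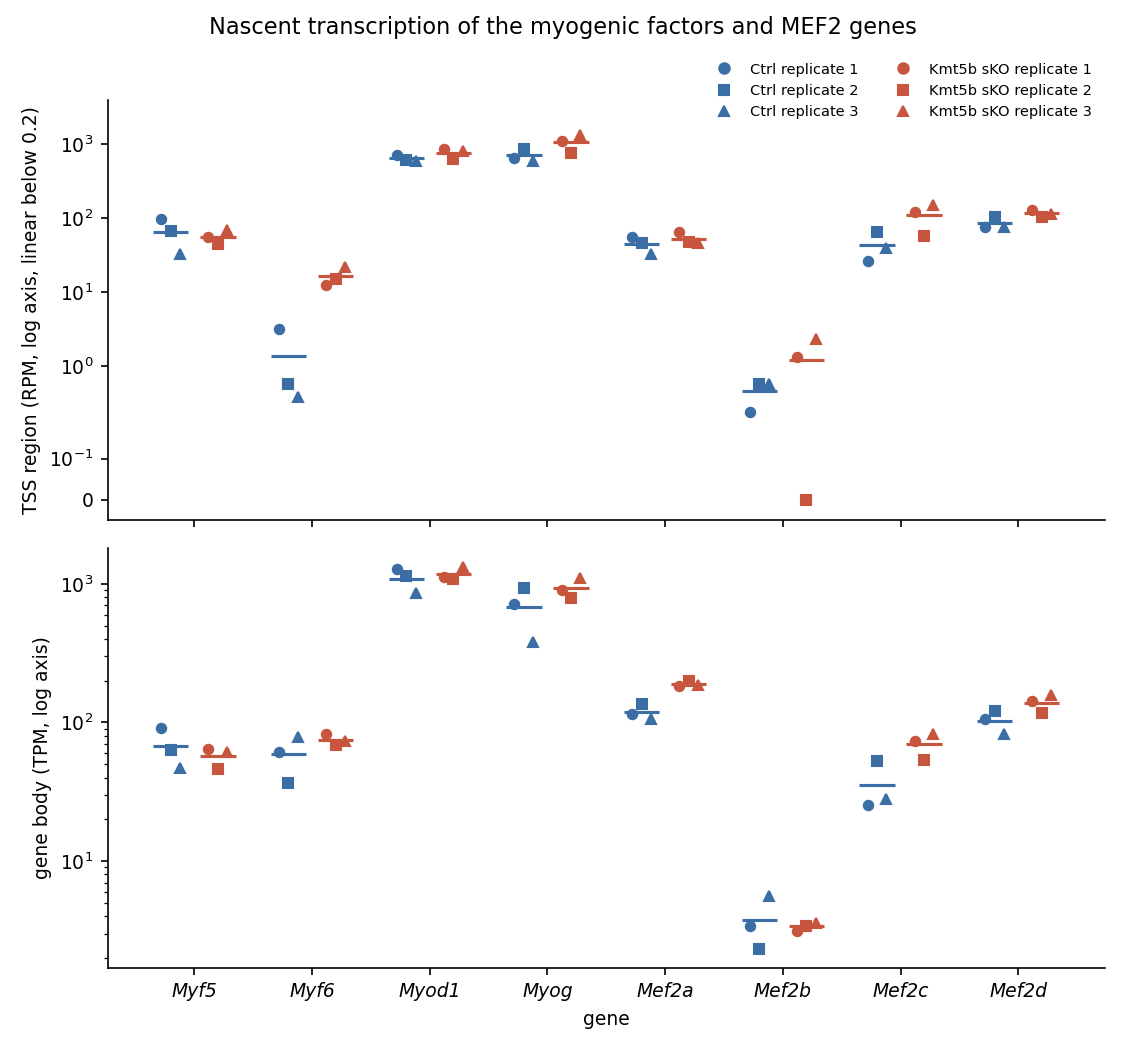
Nascent transcription of the 8 genes in each library, with the TSS region in RPM (top) and the gene body in TPM (bottom) on log axes; points are libraries, shaped by replicate number, and short lines are group means. *Myf6* in the TSS region is the gene whose groups lie farthest apart, with Ctrl at 0.38 to 3.15 RPM and *Kmt5b* sKO at 12.5 to 22.1 RPM.

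Between genotypes many members had positive log2 fold changes (*Kmt5b* sKO over Ctrl) and few were called at an adjusted limma p under 0.1. *Mef2b*, with a Ctrl mean of 0.46 RPM near the start, passed the filter on low values only through its *Kmt5b* sKO libraries. Of the other 7 members, 6 were above 0 in the TSS region (58.2% of all genes). Of all 8, 2 had an unadjusted p under 0.05 there (11% of all genes) and 2 were called, *Myf6* and *Mef2c*, where 1.66% of all genes were called and 0.932% were called as higher in *Kmt5b* sKO. In the gene body 6 of 8 were above 0 (53.8%), 2 had an unadjusted p under 0.05 (15.9%) and *Mef2a* was called, against 2.99% of all genes called and 1.61% called as higher. Every *Kmt5b* sKO library exceeded every Ctrl library for 1 member near the start, *Myf6* (10.2% of all genes), and for 2 members along the gene body, *Mef2a* and *Mef2c* (12%).

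*Myf6* was the member with the largest difference. The Ctrl libraries gave 3.15, 0.57 and 0.38 RPM for its TSS region, replicates 1 to 3, and the *Kmt5b* sKO libraries gave 12.5, 15.2 and 22.1 RPM. The groups did not overlap, as was the case for 15.6% of all genes, and Ctrl replicate 1 stood above the other two Ctrl libraries. The values rest on 13, 1 and 2 reads in Ctrl and on 38, 23 and 48 reads in *Kmt5b* sKO, and the exact 95% Poisson intervals, which cover counting error only, reached at most 5.38 RPM in Ctrl and at least 8.81 RPM in *Kmt5b* sKO. On the log2(RPM + 0.5) scale limma gave a fold change of 3.46 with a standard error of 0.54 (adjusted p = 0.026), the highest of all 12451 genes. This scale understates folds of low values. *Myf6* passed with any 1 library left out (log2 fold change 3.07 to 4.10, the highest without Ctrl replicate 1, adjusted p at most 0.099). It did not pass in limma without a trend of the variance (adjusted p = 0.11) or with no filter on low values (adjusted p = 0.29).

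The gene body of *Myf6* did not show such a difference. Ctrl libraries gave 60.8, 36.7 and 78.8 TPM and *Kmt5b* sKO libraries 82.4, 68.9 and 73.5 TPM, from 62 to 167 reads per library. The groups overlapped, since Ctrl replicate 3 exceeded 2 of the *Kmt5b* sKO libraries, and the fitted log2 difference of 0.41, with a standard error of 0.26, was not called (limma adjusted p = 0.53). The gene is short (chr10:107492853-107494737, minus strand, GRCm38), the whole TSS region lies in exon sequence and 367 of its 400 nt are coding, and 58.1% of the gene body is exonic.

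Set side by side as reads per kilobase, both stretches of *Myf6* show the shape of the difference. In Ctrl the TSS region held 32.5, 2.50 and 5.00 reads per kb and the gene body 88.9, 41.8 and 113 reads per kb. In *Kmt5b* sKO the TSS region held 95, 57.5 and 120 reads per kb and the gene body 91.6, 45.1 and 70.1 reads per kb. Reads were thus sparser near the start than in the rest of the gene in every Ctrl library and denser there in every *Kmt5b* sKO library. In *Kmt5b* sKO replicates 1 and 2 the margin was small (95 against 91.6 and 57.5 against 45.1 reads per kb). It rests there on 38 and 23 TSS reads, and whether it exceeds counting error was not tested.

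*Myf5* lies downstream of *Myf6* on the same strand (chr10:107482908-107486134), with 6719 nt between the 2 genes. Near its start Ctrl libraries gave 95.9, 67.2 and 32.4 RPM and *Kmt5b* sKO libraries 54.7, 44.9 and 69.5 RPM. The groups overlapped, and the highest library was Ctrl replicate 1. The fitted log2 difference was -0.10 with a standard error of 0.31 near the start (limma adjusted p = 0.95) and -0.19 with a standard error of 0.26 along the gene body (adjusted p = 0.79), where Ctrl libraries ranged from 46.6 to 91.2 TPM and *Kmt5b* sKO libraries from 45.9 to 64.3 TPM. Without Ctrl replicate 1 the sign turned in both regions, to 0.25 and 0.05.

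Within each library *Myf6* was compared with *Myf5* directly. The log2 difference of the TSS regions, *Myf6* minus *Myf5*, came to -4.72, -5.98 and -5.22 for Ctrl and to -2.09, -1.53 and -1.63 for *Kmt5b* sKO. The groups did not overlap, and the mean was higher by 3.56 on the log2 scale for *Kmt5b* sKO (exact permutation test, two-sided, p = 0.1, which is the smallest value possible with 3 against 3 libraries). In the gene body the same measure differed by 0.60 (exact p = 0.4). Of the nearest other listed genes, *Lin7a* (61434 nt away) gave 0.53, 1.38 and 0.69 TPM along the gene body for Ctrl against 0.39, 0.28 and 0.30 TPM for *Kmt5b* sKO. The groups did not overlap, as in 21.4% of all genes, and *Lin7a* was not called (limma adjusted p = 0.32). It passed the filter on low values only through its Ctrl libraries. *Ptprq* (22312 nt away, on the *Myf6* side) was listed at 0 RPM in the TSS region of all libraries and was not tested.

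**Figure D2:**
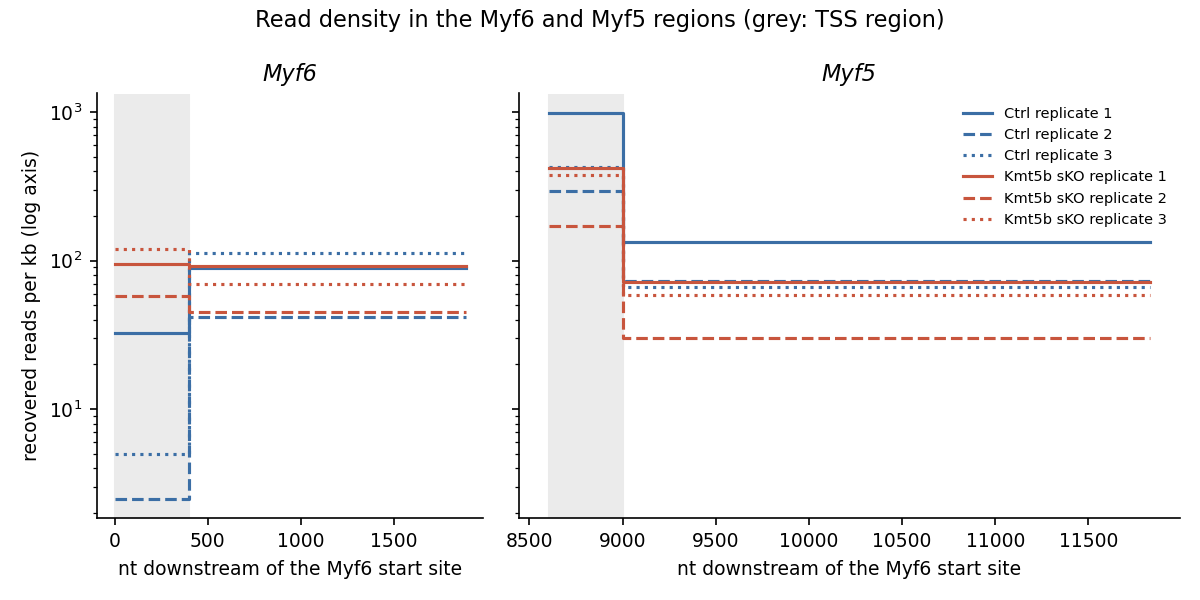
Recovered reads per kb (log axis) in the TSS region (grey) and gene body of *Myf6* (left) and *Myf5* (right), by distance in nt downstream of the *Myf6* start; each line is 1 library, coloured by genotype and dashed by replicate. In *Myf6* the Ctrl lines step up from 2.50 to 32.5 reads per kb at the start to 41.8 to 113 in the body, whereas in *Myf5* every line steps down after the TSS region.

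*Myod1* and *Myog* were not called in any measure. *Myod1* (chr7:46376474-46379099, plus strand) had a TSS region of 720, 615 and 596 RPM for Ctrl against 853, 624 and 803 RPM for *Kmt5b* sKO, a fitted log2 difference of 0.23 with a standard error of 0.24 (limma adjusted p = 0.82). Its gene body held 1272, 1144 and 855 TPM against 1117, 1091 and 1328 TPM (log2 fold change 0.13, adjusted p = 0.86). The groups overlapped in both regions. *Myog* (chr1:134289989-134292548, plus strand) had 657, 869 and 593 RPM for Ctrl against 1101, 750 and 1351 RPM for *Kmt5b* sKO near the start, and 720, 925 and 382 TPM against 907, 790 and 1105 TPM along the gene body. *Kmt5b* sKO replicate 2 was the lowest mutant library in both regions and fell among the Ctrl libraries. The fitted log2 differences of *Myog* were 0.57 and 0.55, with standard errors of 0.28 and 0.34 (limma adjusted p = 0.46 and 0.52), higher than 87.5% and 90.1% of the genes tested. Of the TSS reads of the 4 myogenic factors *Myog* took 44.5% to 56.0% in Ctrl and 52.3% to 60.2% in *Kmt5b* sKO, *Myod1* 39.6% to 48.8% and 35.8% to 43.5%, and *Myf6* 0.0311% to 0.213% and 0.616% to 1.06%.

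The promoter of *Myog* is shown because it is the myogenic factor promoter in the RefSeq sequences (GRCm38.p6) that holds E-boxes. RefSeq windows were matched for 6 of the 8 genes, and *Myf6* and *Myod1* were not matched. Each window runs 5′ to 3′ from 250 bases before to 10 bases after the RefSeq start, here chr1:134289754-134290013 on the plus strand, and the listed start of *Myog* lies 15 nt upstream of the RefSeq one. Capitals mark matches to CANNTG on both strands, here CACATG at -138 to -133 and CAGTTG at -12 to -7.
Myog: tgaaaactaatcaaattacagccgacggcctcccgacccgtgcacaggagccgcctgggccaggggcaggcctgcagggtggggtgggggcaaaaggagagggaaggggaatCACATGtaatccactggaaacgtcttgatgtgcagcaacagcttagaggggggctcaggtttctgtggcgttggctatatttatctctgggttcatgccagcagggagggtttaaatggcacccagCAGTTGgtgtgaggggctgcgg
Among all 32851 RefSeq windows of this length 67.7% hold at least 1 such match and 33.5% hold 2 or more, and the *Myf5* window holds 0.

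*Mef2a* (chr7:67234207-67372858, minus strand), one of the most widely expressed MEF2 genes, was the only member called along the gene body. Ctrl libraries gave 116, 136 and 106 TPM and *Kmt5b* sKO libraries 183, 199 and 186 TPM, each from at least 18056 reads over 138251 nt. The groups were well apart, and the fitted log2 difference was 0.67 with a standard error of 0.14 (limma adjusted p = 0.084), a fold of 1.59. The TSS region held 56.2, 46.0 and 32.2 RPM against 64.3, 46.9 and 46.0 RPM, overlapped and was not called (log2 fold change 0.24, adjusted p = 0.82). The call in the gene body was lost without Ctrl replicate 1 (log2 fold change 0.65, adjusted p = 0.25) and without *Kmt5b* sKO replicate 1, 2 or 3 (0.69, 0.63 and 0.68, adjusted p = 0.24, 0.21 and 0.25). In the annotation *Lysmd4*, Gm44667 and Gm44668 overlap this interval. Reads were counted on the strand of *Mef2a*, the strands of these genes were not looked up, and their part in its value was not tested.

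The *Mef2a* window (chr7:67372849-67373108, minus strand) is shown because it holds a match to the pattern YTAWWWWTAR at its start (-2 to +8, in capitals). In this pattern Y is C or T, W is A or T and R is A or G. It is a strict form of the A/T-rich sequence that MEF2 proteins bind.
Mef2a: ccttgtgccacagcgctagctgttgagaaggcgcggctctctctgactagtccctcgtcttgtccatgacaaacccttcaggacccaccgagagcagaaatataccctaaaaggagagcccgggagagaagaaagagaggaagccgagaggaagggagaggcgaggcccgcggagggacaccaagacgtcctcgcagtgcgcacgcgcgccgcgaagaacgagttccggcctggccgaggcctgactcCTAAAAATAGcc
A match to this pattern is found in 2.98% of all 32851 windows, and in none of the other member windows. Near matches were not counted, such as ctatatttat in the *Myog* window, which differs from the pattern at its last base. The listed start of *Mef2a* equals the RefSeq start.

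*Mef2c*, the MEF2 gene best known from muscle and heart development, was called in the TSS region. It is listed at chr13:83504206-83663686 on the plus strand. Ctrl libraries gave 26.1, 65.5 and 39.0 RPM and *Kmt5b* sKO libraries 121, 58.1 and 150 RPM, from 88 to 370 reads per library. *Kmt5b* sKO replicate 2 lay below Ctrl replicate 2, so the groups overlapped. The fitted log2 difference was 1.32 with a standard error of 0.33 (limma adjusted p = 0.072), a fold of 2.49. The call was lost without Ctrl replicate 1 (log2 difference 1.004, adjusted p = 0.39), without *Kmt5b* sKO replicate 1 (1.19, adjusted p = 0.25) or replicate 3 (1.04, adjusted p = 0.32), in limma without a trend (adjusted p = 0.35) and with no filter on low values (adjusted p = 0.47). In the gene body *Mef2c* held 25.4, 52.7 and 28.2 TPM against 73.8, 53.9 and 82.7 TPM. The groups did not overlap there, as in 21.4% of all genes, but Ctrl replicate 2 and *Kmt5b* sKO replicate 2 differed by little, and the log2 difference of 1.03, with a standard error of 0.29, was not called (limma adjusted p = 0.15). It was called without Ctrl replicate 2 (1.35, adjusted p = 0.084) and by DESeq2 on the recovered reads (0.97, adjusted p = 0.010).

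The first *Mef2c* window in RefSeq is shown as the one nearest to the TSS region that was called (chr13:83503784-83504043, plus strand). It ends upstream of that region, whose listed start lies 172 nt downstream of the RefSeq start, and capitals mark CAAGTG at -234 to -229 and CATATG at -100 to -95, both matches to CANNTG.
Mef2c: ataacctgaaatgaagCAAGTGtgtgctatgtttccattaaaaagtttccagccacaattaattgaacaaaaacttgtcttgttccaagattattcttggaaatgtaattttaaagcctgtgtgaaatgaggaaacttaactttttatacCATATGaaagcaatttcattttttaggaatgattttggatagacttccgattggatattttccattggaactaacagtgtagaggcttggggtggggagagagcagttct
Another 2 RefSeq starts of *Mef2c* lie 19450 and 69401 nt downstream of the listed start, inside its gene body.

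*Mef2d* and *Mef2b* were not called. *Mef2d* (chr3:88142372-88172086, plus strand) held 76.5, 105 and 75.6 RPM against 129, 105 and 115 RPM near the start, and 106, 120 and 82.6 TPM against 142, 117 and 158 TPM along the gene body. The overlap came from Ctrl replicate 2 and *Kmt5b* sKO replicate 2 in both regions, and the log2 fold changes were 0.45 and 0.43 (standard errors 0.22 and 0.19, limma adjusted p = 0.45 and 0.32). *Mef2b* (chr8:70152781-70167487, plus strand), a MEF2 gene with its best known roles in lymphocytes, had 1, 1 and 3 TSS reads in Ctrl and 4, 0 and 5 in *Kmt5b* sKO, at the limit of detection, so no fold is given in the text for this region. In its gene body it held 3.39, 2.33 and 5.58 TPM against 3.14, 3.41 and 3.59 TPM (log2 fold change -0.07, adjusted p = 0.95). Among the MEF2 genes *Mef2c* took 16.4% to 30.2% of the TSS reads in Ctrl and 27.7% to 47.9% in *Kmt5b* sKO, and *Mef2a* 21.2% to 35.3% and 14.7% to 22.3%.

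**Figure D3:**
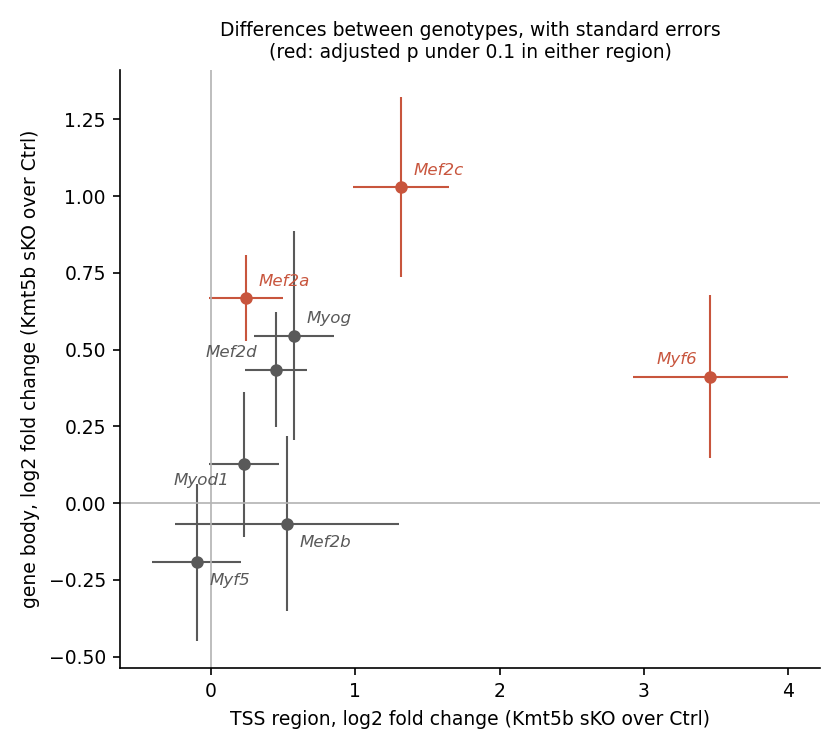
Log2 fold change between genotypes in the TSS region (x axis) and in the gene body (y axis) of the 8 genes, with limma standard errors as bars and genes called in either region in red. *Myf6* lies far to the right at 3.46 with a gene body value of 0.41, *Mef2c* is high on both axes (1.32 and 1.03), and *Mef2a* is called through the gene body alone. The x value of *Mef2b* rests on 0 to 5 TSS reads per library, at the limit of detection, and is not read.

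The pausing index, TSS value over gene body value, describes how much of the engaged polymerase sits near the start. Both values are scaled separately, so an index of 1 does not stand for equal density. The median over all genes was 1.47 to 1.61 per library. *Myog* (0.91 to 1.55) and *Mef2c* (1.03 to 1.81) lay within the quartiles of all genes in every library, *Myf5* (0.70 to 1.13) and *Mef2d* (0.72 to 0.92) lay near the lower quartile, and *Myod1* (0.54 to 0.76) and *Mef2a* (0.24 to 0.49) lay below it. *Myf6* had the lowest index of the members in every Ctrl library and in *Kmt5b* sKO replicate 1, whereas *Mef2b*, listed at 0, was lowest in *Kmt5b* sKO replicate 2 and *Mef2a* in replicate 3. It came to 0.052, 0.016 and 0.0048 for Ctrl and to 0.15, 0.22 and 0.30 for *Kmt5b* sKO. Only 0.0256% to 0.615% of genes had a lower index in the Ctrl libraries, and 2.35% to 6.64% did in the *Kmt5b* sKO libraries. The groups did not overlap, as in 9.02% of all genes (5.93% with *Kmt5b* sKO above Ctrl).

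On the log2 scale 6 of the 7 members tested had a higher index in *Kmt5b* sKO (57.3% of all genes). For *Myf6* the difference was 3.78 with a standard error of 0.87, the highest of the 11698 genes tested, but it was not called (limma adjusted p = 0.90), and 0% of all genes were. An unadjusted limma p under 0.05 was reached by 452 genes, or 3.86%. With the ratio taken from recovered reads per nt, without the separate scaling, *Myf6* was 1 of 9 genes called (log2 fold change 3.73, adjusted p = 4.0e-04), an alternative chosen after the data had been seen. The log2 differences of the other members ran from -0.42 (*Mef2a*) to 0.29 (*Mef2c*) with adjusted p of at least 0.99, and *Mef2b* was not tested, as it was at 0 in 1 library.

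**Figure D4:**
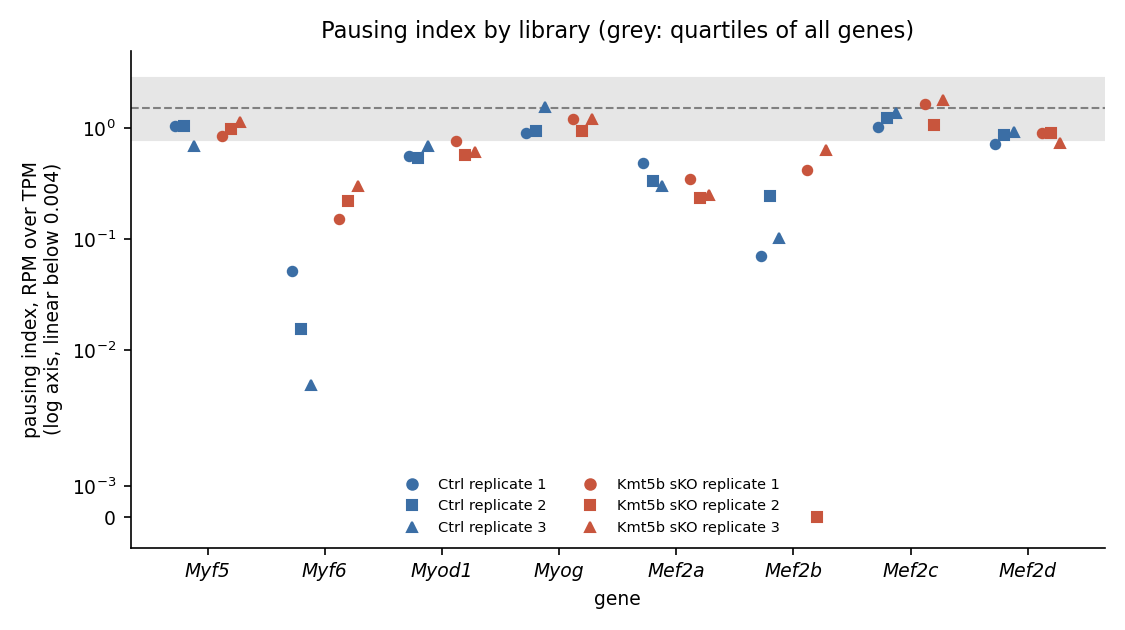
Pausing index (RPM over TPM, log axis) of the 8 genes in each library; the grey band runs from the lowest lower quartile to the highest upper quartile of all genes over the libraries, and the dashed line is the middle of the library medians. *Myf6* lies below the band in all libraries, at 0.0048 to 0.052 in Ctrl and 0.15 to 0.30 in *Kmt5b* sKO.

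Few of the genes that act on or with the factors were called. Of the 3 E protein partners (*Tcf3*, *Tcf4*, *Tcf12*), the 16 inhibitors, such as the Id proteins that take E proteins away, the 10 upstream activators tested, such as *Pax7*, and the 9 coactivators tested, such as *Ep300* and *Carm1*, 0 were called in either region. At an unadjusted limma p under 0.05 these lists held 0, 1, 1 and 0 genes near the start (11% of all genes). Along the gene body they held 0, 1, 0 and 0 (15.9% of all genes). *Id1*, the inhibitor with the highest TSS level, ranged from 1509 to 2438 RPM over the Ctrl libraries and from 1519 to 2234 RPM over the *Kmt5b* sKO libraries. *Id4* was the inhibitor with an unadjusted p under 0.05 in both regions. Every *Kmt5b* sKO library of *Id4* exceeded every Ctrl library in both (10.2% and 12% of all genes). Its log2 fold changes were 0.83 and 0.48 (limma adjusted p = 0.32 and 0.16). *Tcf12* was lower in every *Kmt5b* sKO library in the gene body (38.4 to 39.5 against 41.2 to 46.5 TPM) without being called. The groups did not overlap there for 21.4% of all genes. Of 13 regulators of MEF2 activity 1 was called, in the gene body (2.99% of all genes). This was *Hdac9*, a class IIa histone deacetylase that binds and represses MEF2 proteins. Its gene body rose from 2.44, 3.09 and 1.72 TPM in Ctrl to 8.62, 5.01 and 6.16 TPM in *Kmt5b* sKO, with no overlap (log2 difference 1.28, limma adjusted p = 0.080). The *Hdac9* call was lost without Ctrl replicate 1 or without any 1 *Kmt5b* sKO library. The related *Hdac4* (0.21 on the gene body log2 scale), *Hdac5* and *Hdac7* were not called.

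Target genes of the factors had the highest median difference of these lists. Of 29 tested, 6 were called in the TSS region (*Tnnc2*, *Tnnc1*, *Xirp1*, *Cav3*, *Casq2* and *Myl1*) and 4 in the gene body (*Tnnc1*, *Myl1*, *Xirp1* and *Myom1*), all higher in *Kmt5b* sKO, against 0.932% and 1.61% of all genes called as higher. All 6 calls in the TSS region were lost without Ctrl replicate 1, where *Myf6* was the only gene called. All 4 in the gene body were lost without Ctrl replicate 1 or without any 1 *Kmt5b* sKO library, where 0 genes were called. The median log2 fold change of the list came to 0.68 near the start and 0.73 along the gene body, and that of all genes to 0.08 and 0.02. *Tnnc1*, slow and cardiac troponin C, had 25.2, 54.0 and 34.1 RPM for Ctrl against 102, 81.9 and 105 RPM for *Kmt5b* sKO (fitted fold 2.64, limma adjusted p = 0.029). *Tnnc2*, fast troponin C, held 25.9, 51.1 and 14.4 RPM against 88.2, 64.7 and 190 RPM (fitted fold 3.78, adjusted p = 0.038). No Ctrl library of either gene reached a *Kmt5b* sKO library, as was the case for 10.2% of all genes in the TSS region. *Cav3*, the muscle caveolin, held 51.1, 70.1 and 65.5 RPM against 139, 127 and 177 RPM (fitted fold 2.36, adjusted p = 0.029), and *Myom1*, an M-band protein, 17.4, 20.7 and 14.2 TPM against 31.3, 27.2 and 39.3 TPM in the gene body (fitted fold 1.85, adjusted p = 0.090).

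**Figure D5:**
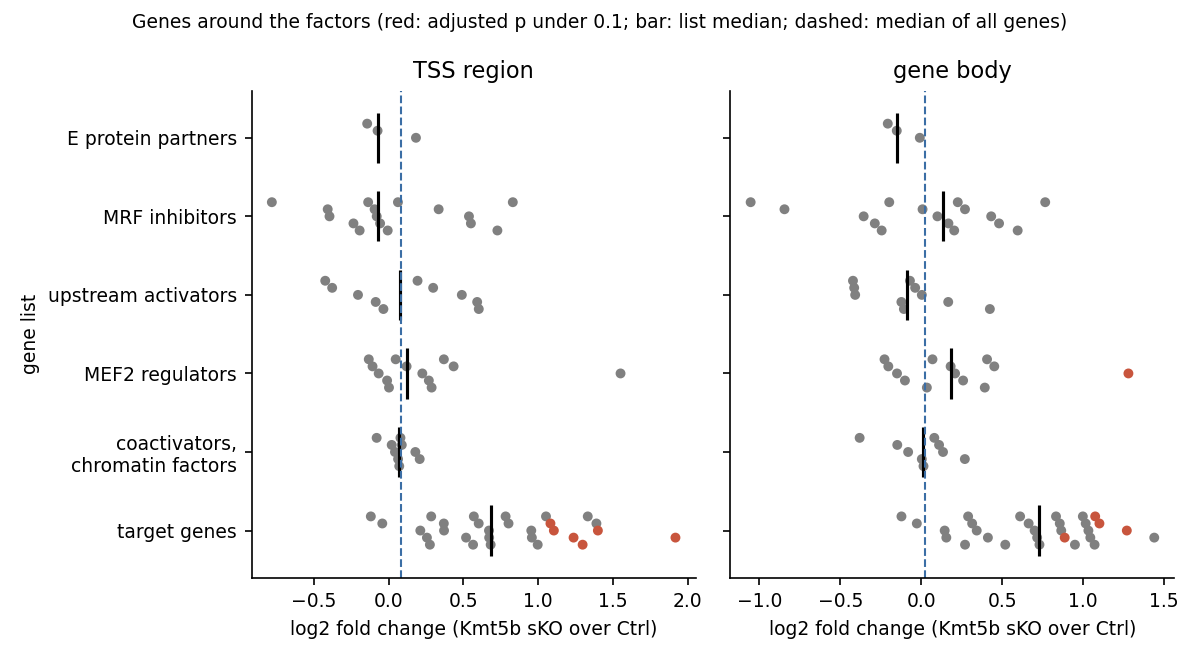
Log2 fold change (*Kmt5b* sKO over Ctrl) of every tested gene in the 6 lists around the factors, in the TSS region (left) and gene body (right); red points were called, black bars are list medians and the dashed line is the median of all genes. The target genes sit to the right in both regions, with medians of 0.68 and 0.73, while the medians of the other lists stay between -0.15 and 0.18.

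Markers of other cell states were read beside these values. All 10 mature fibre markers are listed and 7 were tested. All 7 had positive log2 fold changes in both regions (58.2% and 53.8% of all genes). An unadjusted limma p under 0.05 was reached by 5 in each region (11% and 15.9% of all genes), and 0 were called (1.66% and 2.99%). The summed level of the 10 fibre markers near the start was 360, 535 and 316 RPM for Ctrl against 703, 517 and 1042 RPM for *Kmt5b* sKO. In the gene body it was 773, 948 and 437 TPM against 1335, 997 and 2010 TPM. Of the fibre myosins *Myh1* had 34.7 to 257 RPM in the TSS region and *Myh7* 2.64 to 7.21 RPM, whereas *Myh2* and *Myh4* had at most 1.31 RPM. In the gene body *Myh2* held 2.79 to 12.4 TPM and *Myh4* 0.90 to 6.91 TPM. *Pvalb*, a fibre marker that is not a myosin, had at most 0.92 RPM in the TSS region. As with *Mef2c* and *Myog*, Ctrl replicate 2 was the highest Ctrl library and *Kmt5b* sKO replicate 2 the lowest mutant library in the sum of the fibre markers. All 5 Schwann cell markers are listed, 3 were tested and all 3 were higher, with a summed gene body level of 13.4 to 16.5 TPM in Ctrl and 21.1 to 29.9 TPM in *Kmt5b* sKO. *Sox10* was called among them (4.10, 3.64 and 2.14 against 8.14, 15.5 and 8.80 TPM, log2 fold change 1.56, limma adjusted p = 0.075), and *S100b* was at 0 in the TSS region of 3 libraries. The *Sox10* call was lost without Ctrl replicate 1 or without any 1 *Kmt5b* sKO library. Of the markers of MuSCs, fibroblasts, endothelial, immune and smooth muscle cells, 6, 4, 1, 1 and 2 were tested. Among them 0 were called in the TSS region (1.66% of all genes) and 0 in the gene body (2.99%). With so few tested, these counts say little about these markers. Their summed gene body levels overlapped between genotypes, at 47.8 to 72.9 TPM for Ctrl and 50.6 to 56.6 TPM for *Kmt5b* sKO in fibroblast markers, 3.54 to 8.57 and 5.45 to 14.7 TPM in endothelial, 218 to 423 and 331 to 340 TPM in immune (nearly all *Cd68*), and 239 to 415 and 241 to 327 TPM in smooth muscle markers. The part of these cells in the values of *Myf6*, *Mef2a*, *Mef2c* and the target genes was not tested.

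Genes most like a factor were found by the root mean square difference of centred gene body log2 values over the 6 libraries, as a description. For *Myog* these were *Ppfia4* (0.044), *Speg* (0.046) and *Unc45b* (0.046). *Ppfia4* lies 4234 nt beyond the end of *Myog* on the opposite strand of chromosome 1 and had 70.2, 84.7 and 37.0 TPM for Ctrl against 83.9, 72.7 and 100 TPM for *Kmt5b* sKO. *Speg* and *Unc45b* encode muscle proteins. For *Myod1* they were *Wrap73* (0.040), *Fam216a* (0.044) and *Grpel1* (0.048), for *Myf5* *Zfp324*, *H2-Q4* and *Mmachc* (0.068 to 0.077), and for *Myf6* *Gm14418*, *Tex29* and *Tbxas1* (0.095 to 0.12), the least close of the 4 factors. *Myf5*, next to *Myf6* on the chromosome, was not among the latter.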

How the data were processed

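PRO-seq libraries of 3 Ctrl and 3 *Kmt5b* sKO samples were analysed. According to the methods and processing notes, the authors used Trimmomatic 0.39 for trimming, STAR 2.6.1d for alignment to GRCm38, where multi-mapping reads kept 1 random position, and Picard 2.18.16 against duplicates. Reads on the gene's strand were counted, and the isoform with the highest TSS value was kept for each gene. The TSS regions all span 400 nt, so the TPM that the authors name for them equals RPM over the reads in the TSS regions of all isoforms, and the deposited TSS values are called RPM. The gene body values that the authors deposited are TPM. Both are scaled to a fixed total per library, so a change of total transcription cannot appear.

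Autosomal genes that averaged 0.5 or more over libraries in each region (12451) entered limma 3.58.1 (lmFit, eBayes with trend, R 4.3.3) on log2(value + 0.5), without covariates, and were called where the p adjusted by Benjamini-Hochberg over all of them was under 0.1. The pausing index was tested as log2(TSS/gene body) without a pseudocount for 11698 genes above 0 in all libraries. The recovered reads (100% of TSS values up to 50 reads lay within 0.1 reads of a whole number) were also tested with edgeR 4.0.16 and DESeq2 1.42.0. The code was tested on simulated data. The text names the 8 genes, the called genes of fixed lists of partners, regulators, targets and cell markers, the locus neighbours and the 3 genes most like each myogenic factor; other genes of the lists were named after their values were seen. The members and lists were chosen with earlier results of these data known. Replicates are separate samples by their labels, and whether they came from separate mice is not given in the labels, so p-values measure the spread between these libraries.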

Additional observations from a re-analysis of the deposited data

How the results depend on the processing

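The log2 fold changes of *Myf6* and *Mef2c* in the TSS region and of *Mef2a* and *Mef2c* in the gene body kept their sign in all 17 alternatives each (3.04 to 4.10, 1.004 to 1.72, 0.59 to 0.77 and 0.83 to 1.35), but the calls did not all hold. In the TSS region the number of members called went from 2 to 1 (*Myf6*) at an adjusted limma p under 0.05 (64 of all genes), to 0 without a trend of the variance and to 0 with no filter on low values, where 0 of all genes were called although 1292 and 1448 had an unadjusted p under 0.05. With 1 library left out it ranged from 1 to 2, and the number of all genes called, 207 in the main analysis, from 1 to 408, the extremes being the fits without Ctrl replicate 1 and without Ctrl replicate 2. In the gene body the number went from 1 to 0 at an adjusted p under 0.05 and to 2 with DESeq2, and from 0 to 2 with 1 library left out. All genes called there numbered 372, 748 with edgeR, 1295 with DESeq2, 1 at an adjusted p under 0.05 and 0 to 836 with 1 library left out. In the pausing index the number was 0, also for all genes, and became 1 of 9 genes with reads per nt, chosen after seeing the data, and 0 of 1 gene with a pseudocount in both regions.

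Same-numbered libraries did not deviate together (correlations of -0.034 to -0.33 over genes), so the numbers were not taken as pairs. With the replicate number as a block, 0 members and 0 genes were called in the TSS region, the gene body and the pausing index (1141, 1441 and 409 genes at an unadjusted p under 0.05), with adjusted limma p of 0.13 for *Myf6* and 0.20 for *Mef2c* in the TSS region and 0.28 for *Mef2a* in the gene body. For *Myf6* minus *Myf5* the paired difference had an exact sign-flip p of 0.25 in the TSS region, the smallest that 3 pairs can give, and of 0.5 in the gene body. That difference was 3.14 to 4.09 in the TSS region under other pseudocounts and 3.22 to 3.85 with 1 library left out, and 0.31 to 1.08 in the gene body, the latter without Ctrl replicate 3.

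Signs turned only for members with small differences. The pausing index of *Myog* and *Mef2d* was -0.025 and -0.035 with libraries centred on their medians and -0.019 and -0.030 with reads per nt. With 1 library left out, *Myf5* ranged from -0.53 to 0.25 in the TSS region, -0.43 to 0.053 in the gene body and -0.10 to 0.20 in the pausing index, *Myod1* from -0.039 to 0.25 in the gene body and -0.020 to 0.22 in the pausing index, *Mef2b* from -0.33 to 0.22 in the gene body, *Myog* from -0.11 to 0.28 and *Mef2d* from -0.086 to 0.12 in the pausing index. The median of the target genes stayed between 0.55 and 0.91 in the TSS region and between 0.48 and 1.01 in the gene body over 17 alternatives each. The causes of these changes were not tested. Depth limits the TSS region of *Myf6* in Ctrl and of *Mef2b* in all libraries.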
